A study of Mus musculus with 8 samples.

Results

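Endothelial and endocardial genes were followed in 8 mouse hearts at E10.5, in mid-gestation, as 36 genes named by symbol and matched to the Entrez IDs of the deposited count table. All 36 were found among its 27179 genes, and all 36 passed the filter on low counts, beside 15086 genes tested in all. They comprise 27 pan-endothelial genes, 8 transcription factors of the endothelium and Nfatc1 for the endocardium. The hearts fall into the groups MOZ WT (Kat6a+/+, 5 hearts) and MOZ KO (Kat6a-/-, 3 hearts, lacking both alleles), and no treatment beyond the genotype is labelled. The product of Kat6a (Moz) is an enzyme that acetylates histones. Each library was made from total RNA of embryonic heart tissue with a stranded kit. The sources used here do not give strain, litter, the design of the null allele or whether hearts were pooled.

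Endothelial cells line every vessel, and the endocardium is the endothelium that lines the heart chambers. At this stage the endocardium signals to the myocardium it faces, and part of it turns into the mesenchyme of the valve cushions. The endothelial state is held by ETS and SOX factors, while growth by VEGF, stabilisation by angiopoietin and the sensing of blood flow act through receptors found mainly on these cells.

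Total counts ranged from 19911803 to 34539787 per heart. Xist RNA was present in MOZ WT replicates 4 and 5 and at most 0.372 CPM (counts scaled by library size) in the other 6 hearts, so all 3 MOZ KO hearts are on the side without it. Kat6a itself had 138 to 156 CPM in MOZ WT and 133 to 141 CPM in MOZ KO, so its counts, taken across all exons, are no check of the genotype labels. Nothing in the labels says that the hearts came from separate litters or days, so p-values measure only the spread between these samples, which may be technical. Endothelial RNA was plain in all of them. The defining markers Pecam1, Cdh5, Kdr, Tek and Egfl7 had at least 43.7 CPM in every heart, while Cldn5 had only 1.29 to 5.04 CPM. In bulk RNA, more cells of a type and more RNA per cell cannot be told apart.

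Of the 36 genes, 5 rose and 0 fell in MOZ KO hearts: Clec14a, Robo4, Adgrl4, Pecam1 and Tie1, all pan-endothelial. That is 13.9% of the genes, where 2.67% of all genes tested passed in either direction and 1.44% passed as higher and 1.23% as lower (edgeR's quasi-likelihood test with Benjamini-Hochberg adjustment, threshold 0.05). The 36 genes were chosen with earlier results of these data known, so such shares describe the list and test nothing. At an unadjusted p under 0.05, 15 were higher and 2 were lower, where 7.43% and 6.81% of all genes tested were (14.2% in either direction). DESeq2 and limma voom also passed 0 genes as lower. The 5 genes differed in the size of the change. Clec14a, Robo4 and Adgrl4 rose by 1.81, 1.91 and 1.56-fold, while Pecam1 and Tie1 each rose by 1.15-fold. Among the 31 genes that did not pass, 28 had a fitted change under 1.2-fold in either direction. The fold change over all 36 genes had a median of 0.14 on the log2 scale, against 0.00 over all genes tested, and 29 of the 36 lay above 0, against 49.9% of all genes. In 6 genes every MOZ KO heart lay above every MOZ WT heart and in 1 every MOZ KO heart lay below, which makes 19.4% of the genes without overlap, against 9.59% of all genes tested (4.77% above and 4.81% below). Without MOZ WT replicates 4 and 5, the hearts with Xist RNA, 4 genes rose and 0 fell: Clec14a, Robo4, Adgrl4 and Thbd. Leaving out 1 heart gave 2 genes without MOZ KO replicate 3 (Clec14a and Vwf), 3 without MOZ WT replicate 3 or MOZ KO replicate 1 or 2 (Clec14a, Robo4 and Adgrl4), and 4 to 6 otherwise.

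**Figure D1:**
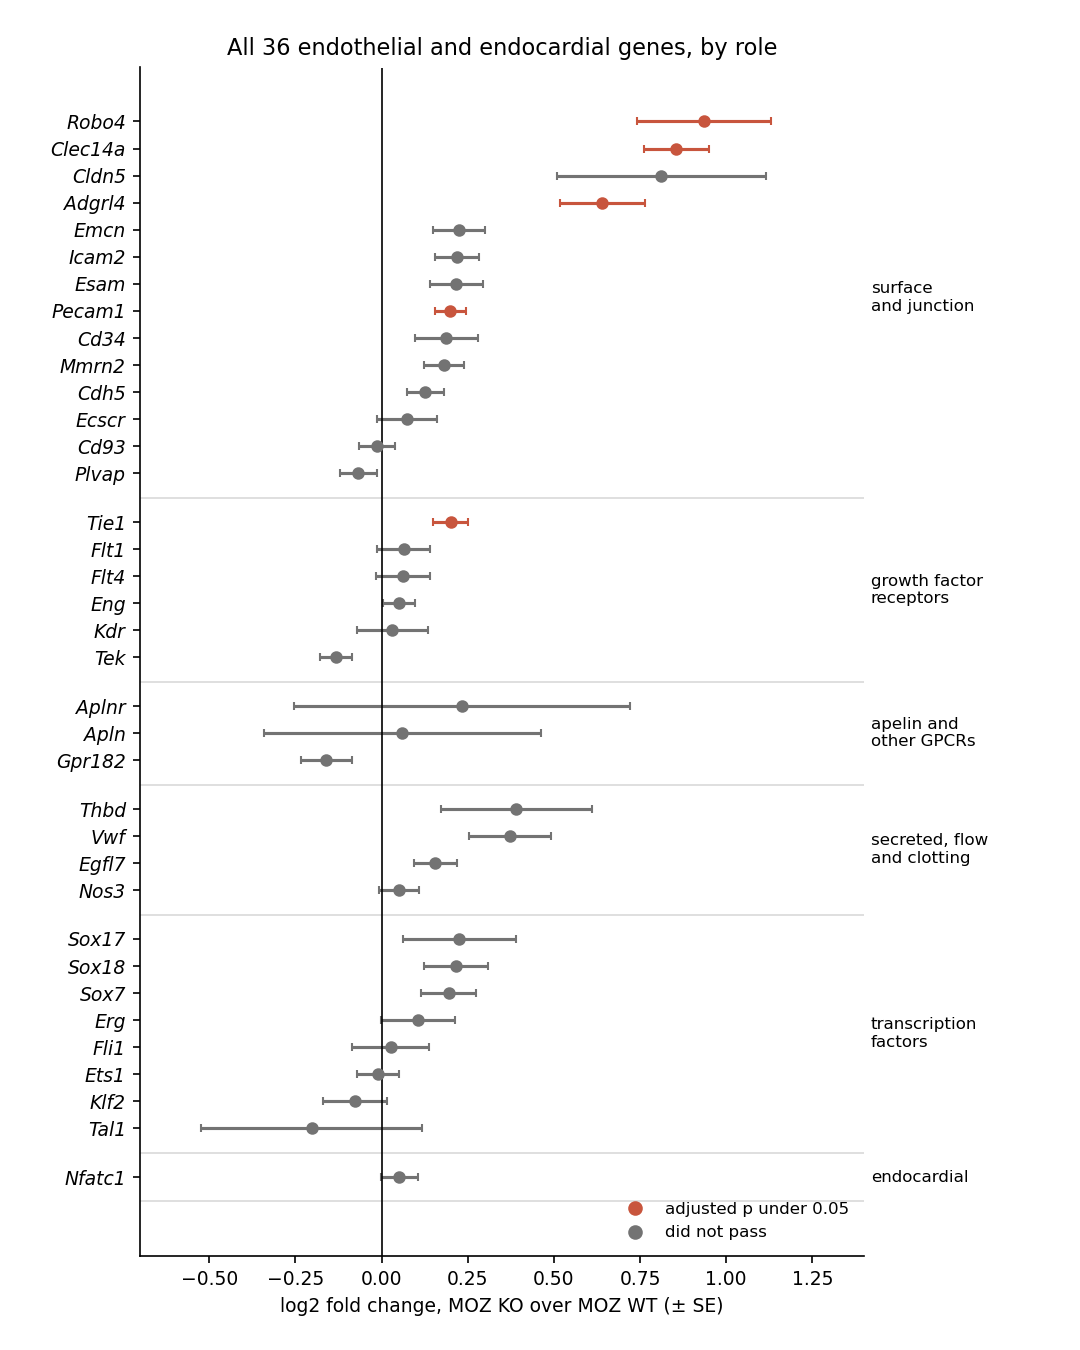
Log2 fold change of MOZ KO over MOZ WT (x axis, log2 scale) for each of the 36 genes (y axis), grouped by role. Points are fitted values, bars are ± SE, and red marks the 5 genes with an adjusted p under 0.05. Robo4, Clec14a and Adgrl4 stand to the right at 0.93, 0.86 and 0.64, and 28 of the 31 genes that did not pass lie within 1.2-fold of no change.

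Among 14 surface and junction genes, 4 rose, 0 fell and 10 did not pass, with a median log2 fold change of 0.21. Clec14a, a transmembrane C-type lectin of endothelial cells that binds the matrix protein encoded by Mmrn2, had 15.3, 20.5, 17.1, 19.6 and 20.2 CPM in MOZ WT replicates 1 to 5 and 31.2, 33.4 and 35.9 CPM in MOZ KO replicates 1 to 3. The lowest MOZ KO heart was above the highest MOZ WT heart by more than the whole range of the MOZ WT hearts. Its log2 fold change was 0.86 ± 0.09 (SE; edgeR, adjusted p = 2.39e-05), and it passed in all 20 alternatives, with 0.79 to 0.94. Clec14a lies at chr12:58264720-58269258 (GRCm38.p6, RefSeq) and overlaps no other gene in that table.

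Robo4, an endothelial member of the Roundabout receptor family that stabilises vessels, was a low gene, with 3.01, 5.07, 2.73, 5.05 and 4.16 CPM in MOZ WT and 6.83, 7.17 and 8.73 CPM in MOZ KO. These values rest on 89 to 204 counts per heart, and the groups did not overlap. The log2 fold change was 0.93 ± 0.19 (SE; edgeR, adjusted p = 0.00981), and the call was lost without MOZ KO replicate 3, the highest heart (adjusted p = 0.0833). Adgrl4, an adhesion receptor of the latrophilin family found on sprouting vessels, had 10.3, 11.7, 9.16, 10.1 and 8.24 CPM in MOZ WT against 14.1, 14.1 and 18.1 CPM in MOZ KO. MOZ KO replicate 3 was again the highest heart, and the other 2 MOZ KO hearts were near each other and still above all MOZ WT hearts. Adgrl4 had a log2 fold change of 0.64 ± 0.12 (SE; edgeR, adjusted p = 0.00467), and it also lost its call without MOZ KO replicate 3 (adjusted p = 0.0632). Robo4 lies at chr9:37401902-37414023 and Adgrl4 at chr3:151437882-151545081.

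Pecam1, the adhesion molecule CD31 of endothelial junctions, rose by a small step, with 137, 149.6, 136, 139 and 136 CPM in MOZ WT and 159, 163 and 157 CPM in MOZ KO. All 3 MOZ KO hearts lay above MOZ WT replicate 2, which itself stood above the other MOZ WT hearts. The log2 fold change was 0.20 ± 0.05 (SE; edgeR, adjusted p = 0.0187), and Pecam1 passed in 13 of the 20 alternatives. It did not pass without MOZ WT replicate 3, without any 1 MOZ KO heart, or without the hearts with Xist RNA (adjusted p up to 0.105). Icam2, an adhesion ligand of leukocyte integrins, did not pass. It had 32.3, 32.6, 33.2, 31.9 and 33.3 CPM in MOZ WT and 37.2, 38.8 and 38.1 CPM in MOZ KO, the smallest relative spread in MOZ WT of all 36 genes (1.77%). Its groups did not overlap, and the adjusted p was 0.0729 with edgeR and 0.0394 with DESeq2. Pecam1 and Icam2 are also expressed by leukocytes and platelets. Of 14 macrophage and leukocyte markers, 7 rose and 0 fell, among them Adgre1, Laptm5, C1qb and C1qa with log2 fold changes of 2.57, 0.87, 1.81 and 2.48. Of the 14, none was at 0 counts in any heart, but counts were as low as 2. In MOZ WT, Adgre1, C1qb and C1qa had 3 to 18, 14 to 27 and 3 to 23 counts per heart, and Laptm5 178 to 317. The summed level of the 14 was 38.1 to 65.6 CPM in MOZ WT and 78.9 to 91.1 CPM in MOZ KO. Their part in the results for Pecam1 and Icam2 was not tested. Of 9 megakaryocyte and platelet markers 0 passed (edgeR; 0 at an unadjusted p under 0.05), with 4 fold changes above 0, 5 below and a median of -0.06 (log2). The 2 of smallest p were Treml1 at 0.52 ± 0.27 and Itga2b at 0.33 ± 0.21 (SE), and Gp1bb, the lowest, had -0.40 ± 0.29. Summed levels of the 9 overlapped, at 45.9 to 93.4 CPM against 63.3 to 74.9 CPM.

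The other 9 surface genes did not pass. Plvap, the protein of the diaphragms of fenestrae and caveolae, had the highest level of all 36 genes for its length, with 193, 224, 209, 227 and 215 CPM in MOZ WT and 203, 215 and 193 CPM in MOZ KO. The groups overlapped and the log2 fold change was -0.07 ± 0.05 (SE). Plvap shares 1872 bases with the tested gene Gtpbp3, which leaves its count open to reads of that gene. Emcn and Cd34, both sialomucins, and Esam, a junction molecule, had log2 fold changes of 0.23 ± 0.08, 0.19 ± 0.09 and 0.22 ± 0.08 (SE). Mmrn2, the matrix partner of Clec14a and Cd93, had 0.18 ± 0.06, and Cdh5, the cadherin of endothelial junctions, had 0.13 ± 0.05. Cd93, a lectin-domain protein of the family of Clec14a, stood at -0.01 ± 0.05, and the regulator of endothelial migration Ecscr at 0.07 ± 0.09. All of these lay within 1.2-fold, and the value of Cd93 turned direction in some alternatives. Cldn5, the tight junction claudin, had a fold change near that of Clec14a (0.81 ± 0.30, SE) at a far wider spread. Its values were 1.29, 2.54, 1.80, 1.57 and 3.72 CPM in MOZ WT and 3.55, 2.80 and 5.04 CPM in MOZ KO, so that MOZ WT replicate 5 reached into the range of the MOZ KO hearts (edgeR, adjusted p = 0.216). Cldn5 passed only without that heart (adjusted p = 0.0340), and Emcn only without MOZ WT replicate 2 (0.0271).

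**Figure D2:**
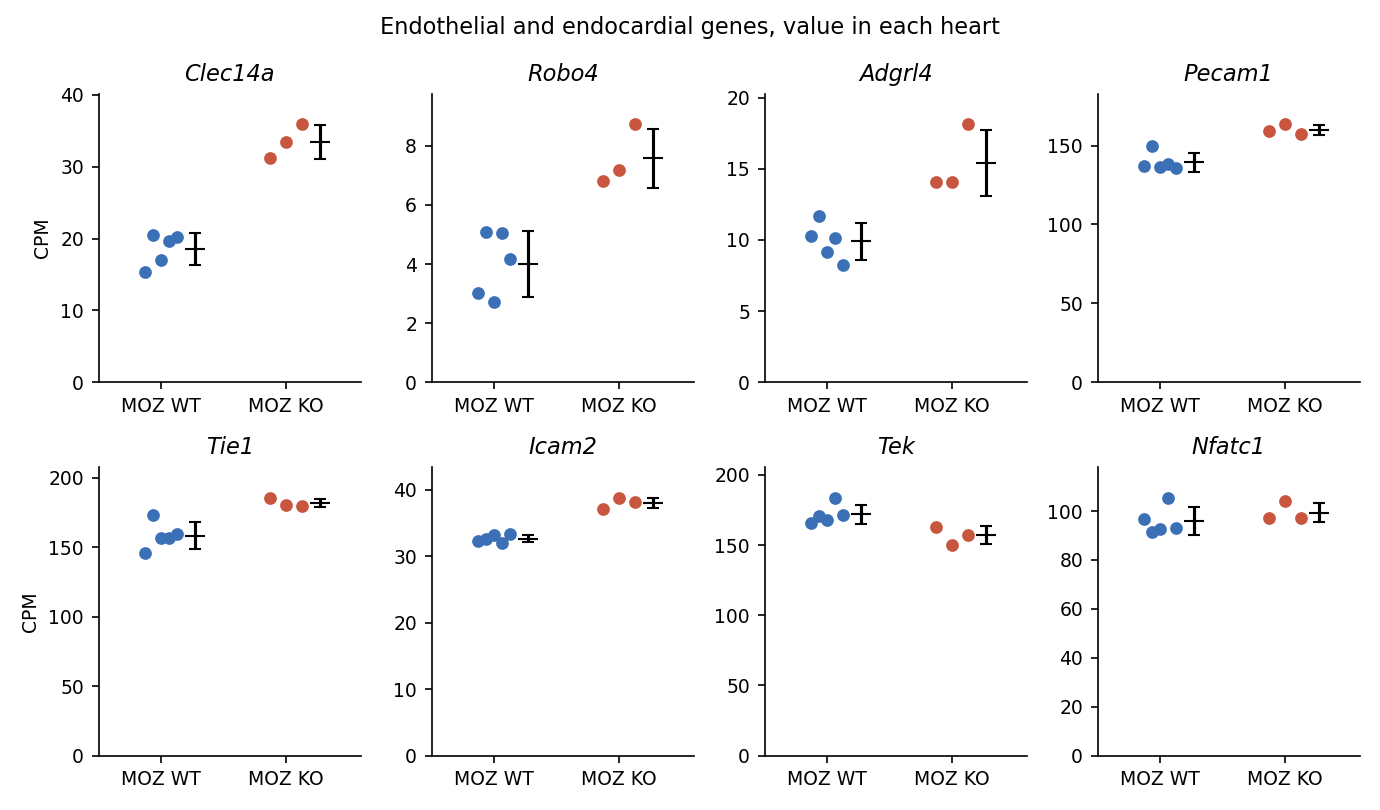
CPM (y axis, from 0) in each heart for 8 genes, with MOZ WT in blue (5 hearts) and MOZ KO in red (3 hearts). Points are hearts and the bars beside them show the mean ± SD. MOZ KO hearts lie above all MOZ WT hearts for Clec14a, Robo4, Adgrl4, Pecam1, Tie1 and Icam2, below them for Tek, and among them for Nfatc1.

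Start-site windows are shown for called genes, since ETS factors are known to act at endothelial promoters. The genes were picked by their calls, and a part of ETS factors in their rise was not tested. Sequences are those of RefSeq on GRCm38.p6, each 300 bases long, from 250 bases before to 50 bases after a start site, and 17 of the 36 genes were matched in that table. Capitals mark the ETS-type motif AGGAAG or its reverse complement CTTCCT. The Clec14a window is chr12:58269209-58269508 on the minus strand, that of Robo4 is chr9:37401722-37402021 on the plus strand, that of Adgrl4 is chr3:151437632-151437931 on the plus strand, and that of Tie1 is chr4:118489800-118490099 on the minus strand. Pecam1 was not matched.
Clec14a: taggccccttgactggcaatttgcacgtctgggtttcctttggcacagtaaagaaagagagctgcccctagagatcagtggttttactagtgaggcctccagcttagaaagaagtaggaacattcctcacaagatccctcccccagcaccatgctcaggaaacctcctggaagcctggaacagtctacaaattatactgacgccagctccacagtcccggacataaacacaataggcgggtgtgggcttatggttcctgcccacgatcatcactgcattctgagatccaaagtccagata
Robo4: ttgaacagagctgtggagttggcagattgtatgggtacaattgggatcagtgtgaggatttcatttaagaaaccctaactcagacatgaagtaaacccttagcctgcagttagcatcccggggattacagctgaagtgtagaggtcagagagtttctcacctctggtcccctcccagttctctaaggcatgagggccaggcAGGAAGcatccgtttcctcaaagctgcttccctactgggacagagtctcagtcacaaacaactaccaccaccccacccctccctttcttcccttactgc
Adgrl4: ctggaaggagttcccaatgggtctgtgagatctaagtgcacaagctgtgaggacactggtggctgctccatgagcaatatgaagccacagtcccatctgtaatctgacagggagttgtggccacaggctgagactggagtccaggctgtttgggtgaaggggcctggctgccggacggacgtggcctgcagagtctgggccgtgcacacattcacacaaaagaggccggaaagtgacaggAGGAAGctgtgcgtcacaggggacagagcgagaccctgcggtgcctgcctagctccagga
Tie1: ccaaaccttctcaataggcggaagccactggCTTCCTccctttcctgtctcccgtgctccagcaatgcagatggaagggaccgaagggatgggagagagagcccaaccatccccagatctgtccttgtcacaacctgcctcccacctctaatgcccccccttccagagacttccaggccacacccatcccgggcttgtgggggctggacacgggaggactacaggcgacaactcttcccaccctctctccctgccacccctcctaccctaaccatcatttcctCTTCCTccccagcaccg
The Adgrl4 window holds the motif 10 bases before the start site and the Robo4 window 49 bases before it, counted to the motif's first base. Tie1 holds it on the other strand 219 bases before and again 34 bases into the transcribed part, and these letters are not in the Clec14a window. The 17 genes matched have 22 windows, and the motifs were searched on both strands. AGGAAG was in 11 of the 22 windows, beside 35.4% of all 32851 windows. The motif CCGGAAG, which cannot overlap AGGAAG at the same ETS core, was in 0 of the 22, beside 8.86% of all windows. The KLF-type motif CCACCC was in 9 of the 22 (31.5% of all windows), the E-box CANNTG in 14 (72.3%), the GATA-type AGATAA in 3 (11.2%) and the SOX-type ACAATG in 1 (12.6%). Windows of 1 gene can share bases, and a match describes the letters only.

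Of 6 growth factor receptors, 1 rose, 0 fell and 5 did not pass, and the receptor pair Tie1 and Tek had fold changes of opposite sign. Tie1, an orphan receptor that forms complexes with Tek, had 146, 173, 157, 156 and 159 CPM in MOZ WT and 185, 180.5 and 179 CPM in MOZ KO. All MOZ KO hearts were above all MOZ WT hearts, with MOZ WT replicate 2 nearest to them. The log2 fold change was 0.20 ± 0.05 (SE; edgeR, adjusted p = 0.0332), and the call held without MOZ WT replicate 2. It was lost without MOZ WT replicate 1, 3, 4 or 5 or MOZ KO replicate 1, 2 or 3 (adjusted p up to 0.188). It was also lost without both hearts with Xist RNA (0.0990), and Tie1 passed in 9 of the 20 alternatives. Tek, the angiopoietin receptor also called Tie2, had 166, 171, 168, 184 and 172 CPM in MOZ WT and 163, 150.4 and 157 CPM in MOZ KO. It was the only one of the 36 genes with every MOZ KO heart below every MOZ WT heart, and it did not pass (log2 fold change -0.13 ± 0.05, SE; edgeR, adjusted p = 0.175). The difference between Tie1 and Tek was not tested.

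Eng, the endothelial coreceptor for BMP and TGF-beta ligands, had the highest level for its length in this class, with 229, 243, 238, 239.6 and 239.8 CPM in MOZ WT and 246, 262 and 232 CPM in MOZ KO. MOZ KO replicate 3 lay among the MOZ WT hearts, and the log2 fold change was 0.05 ± 0.05 (SE). The VEGF receptors Flt1, Kdr and Flt4 had 0.06 ± 0.08, 0.03 ± 0.10 and 0.06 ± 0.08 (SE), with an adjusted p of 0.791, 0.937 and 0.795 (edgeR). Kdr, the main signalling receptor for VEGF, varied within MOZ WT: 159.9, 157, 163, 204 and 194 CPM in replicates 1 to 5, beside 168, 197 and 173 CPM in MOZ KO. The highest of these were MOZ WT replicate 4, MOZ KO replicate 2 and MOZ WT replicate 5, and the MOZ WT hearts among them are those with Xist RNA.

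Gpr182, Aplnr and Apln were classed as apelin signalling and other G protein-coupled receptors, and the adhesion receptor Adgrl4 with the surface genes. Of the first 3, 0 passed with edgeR, DESeq2 or limma voom (1 at an unadjusted p under 0.05 in edgeR). Gpr182, an atypical chemokine receptor of endothelium, had 45.3, 40.6, 44.4, 46.3 and 42.7 CPM in MOZ WT and 35.8, 37.8 and 44.4 CPM in MOZ KO. MOZ KO replicates 1 and 2 lay below all MOZ WT hearts and replicate 3 lay among them (log2 fold change -0.16 ± 0.07, SE; edgeR, adjusted p = 0.326). Aplnr, the apelin receptor, spread widely in both groups, from 2.88 to 8.73 CPM in MOZ WT and from 4.05 to 11.6 CPM in MOZ KO. Its ligand gene Apln was the lowest of the 36, on 11 to 63 counts per heart. At SEs of 0.49 and 0.40 on the log2 scale, a change of the size of that in Clec14a was not detectable for these 2 genes.

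Among 4 genes of secreted, flow-related and clotting proteins, 0 passed in edgeR, all 4 fold changes were above 0 and the median was 0.26 (log2; 2 at an unadjusted p under 0.05). Vwf, the platelet-binding protein of endothelial granules that megakaryocytes make too, had 65.03, 80.4, 77.7, 82.4 and 84.3 CPM in MOZ WT and 106, 115 and 82.2 CPM in MOZ KO. MOZ KO replicates 1 and 2 were above all MOZ WT hearts, while replicate 3 lay among them. The log2 fold change was 0.37 ± 0.12 (SE; edgeR, adjusted p = 0.191), and Vwf passed with DESeq2 (0.00665), with limma voom (0.0491) and without MOZ KO replicate 3 (0.00785). Thbd encodes thrombomodulin, an anticoagulant surface protein with a lectin domain like those of Clec14a and Cd93. It had 35.9, 30.8, 41.01, 47.98 and 58.4 CPM in MOZ WT and 49.6, 55.3 and 63.7 CPM in MOZ KO. The 2 MOZ WT hearts highest in Thbd were those with Xist RNA, and the other 3 lay below all MOZ KO hearts. Over all 8 hearts its log2 fold change was 0.39 ± 0.22 (SE; edgeR, adjusted p = 0.506). Without the hearts with Xist RNA it was 0.64 (adjusted p = 0.0165). Egfl7, a secreted factor of vessel tubes and the highest gene of this class for its length, had 46.4, 44.6, 46.8, 43.7 and 50.4 CPM in MOZ WT and 49.1, 51.6 and 54.3 CPM in MOZ KO. The groups overlapped through MOZ WT replicate 5 and MOZ KO replicate 1, and the log2 fold change was 0.16 ± 0.06 (SE; edgeR, adjusted p = 0.239). Nos3, the endothelial nitric oxide synthase, had 0.05 ± 0.06 (SE).

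Of the 8 transcription factors, 0 passed with edgeR, DESeq2 or limma voom (2 were higher at an unadjusted p under 0.05 in edgeR), and the median was 0.07 on the log2 scale. The ETS factors Erg, Fli1 and Ets1 had fold changes of 0.11 ± 0.11, 0.03 ± 0.11 and -0.01 ± 0.06 (log2, SE), and those of Fli1 and Ets1 turned direction in some alternatives. Ets1, the highest of these 3 for its length, had 116 ± 10.3 CPM (SD) in MOZ WT and 115 ± 2.63 CPM in MOZ KO. The SOX factors of vessel and artery formation, Sox7, Sox17 and Sox18, had 0.19 ± 0.08, 0.23 ± 0.16 and 0.22 ± 0.09. Sox7, the factor of smallest p, had 24.3, 27.7, 26.3, 25.9 and 28.2 CPM in MOZ WT and 33.5, 27.8 and 29.4 CPM in MOZ KO. MOZ KO replicate 2 lay within the MOZ WT range and the other MOZ KO hearts above it (edgeR, adjusted p = 0.255). Klf2, which endothelium induces under flow, had 38.4, 41.9, 38.95, 49.5 and 41.1 CPM in MOZ WT and 34.4, 44.8 and 40.3 CPM in MOZ KO. MOZ KO replicate 1 was the lowest of all 8 hearts and the other 2 lay among the MOZ WT hearts, with a log2 fold change of -0.08 ± 0.09 (SE).

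Tal1, needed in blood and endocardium, varied more than any other factor here, with 40.7, 43.4, 62.7, 94.9 and 60.8 CPM in MOZ WT and 41.8, 63.2 and 53.2 CPM in MOZ KO. Its log2 fold change was -0.20 ± 0.32 (SE; edgeR, adjusted p = 0.855). Red cell precursors express Tal1 too. Of 10 erythroid genes 0 passed with edgeR (0 at an unadjusted p under 0.05). These 10 had 1 fold change above 0 (Hbb-bs, 0.36 ± 0.56, SE), 9 below and a median of -0.22 (log2). Their summed level was 4016, 4074, 9681, 16623 and 8889 CPM in MOZ WT and 5629.6, 9547 and 7170.4 CPM in MOZ KO. The heart highest in erythroid RNA, MOZ WT replicate 4, was highest in Tal1, and the 3 hearts lowest in erythroid RNA, MOZ WT replicates 1 and 2 and MOZ KO replicate 1, were the 3 lowest in Tal1. With mean erythroid expression as a covariate, the SE of Tal1 was 0.06, its log2 fold change -0.15 and its adjusted p 0.232 (edgeR). The 5 genes called were the same as without that covariate. The part of red cell precursors in the values of Tal1 was not tested.

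Nfatc1, the factor that marks the endocardium and acts in valve formation, had 96.6, 91.6, 92.8, 105 and 93.2 CPM in MOZ WT and 97.1, 104 and 96.98 CPM in MOZ KO. The MOZ KO hearts lay inside the MOZ WT range, and the log2 fold change was 0.05 ± 0.05 (SE; edgeR, adjusted p = 0.744). Of 7 other genes used as endocardial markers, 3 fell, 0 rose and 4 did not pass, with a median log2 fold change of -0.23. Their summed level was 904 to 992 CPM in MOZ WT and 776 to 877 CPM in MOZ KO. Npr3, a natriuretic peptide receptor, had 203, 207, 217, 239 and 230.1 CPM in MOZ WT and 167, 159 and 142 CPM in MOZ KO, without overlap (log2 fold change -0.49 ± 0.06, SE; edgeR, adjusted p = 0.000132). Tmem100, a target of BMP signalling through the receptor Acvrl1 in endothelium, fell from 8.63 ± 1.53 to 4.60 ± 1.01 CPM (SD; log2 fold change -0.91 ± 0.17, SE; edgeR, adjusted p = 0.00377, and 0.0514 without MOZ KO replicate 1). Gata5, a zinc finger factor of endocardium that the epicardium also expresses, fell from 104 ± 5.75 to 88.5 ± 5.83 CPM (SD; edgeR, adjusted p = 0.0266). Gata5 did not pass without MOZ WT replicate 5 (0.0679), MOZ KO replicate 1 (0.230), MOZ KO replicate 2 (0.101) or both hearts with Xist RNA (0.108). Of 8 epicardial markers, 5 fell, among them Lrrn4 (-0.51, log2), Bnc1 (-0.72) and Wt1 (-0.49), and 1 rose, Krt19 (0.42). They had a summed level of 445 to 517 CPM in MOZ WT and 338 to 387 CPM in MOZ KO, and their part in the values of Gata5 and Npr3 was not tested.

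Levels per gene length, as CPM per kilobase, spanned 305-fold over the 36 genes in MOZ WT hearts. The order was led by Plvap (106 ± 6.81 CPM per kilobase, SD), Eng (66.6 ± 1.51), Cdh5 (49.8 ± 3.40), Pecam1 (42.2 ± 1.76) and Tie1 (40.8 ± 2.51), and ended with Sox17 (1.38 ± 0.167), Robo4 (1.09 ± 0.299) and Apln (0.347 ± 0.0738). The first 3 were each apart from the next gene in every MOZ WT heart, whereas Pecam1 and Tie1 were not. Of 35 neighbouring pairs in this order, 28 overlapped between MOZ WT hearts. Nfatc1 stood mid-order at 12.9 ± 0.753 CPM per kilobase, between Esam and Sox18. The 7 lowest genes, from Clec14a (4.09 ± 0.497) down, held Clec14a, Adgrl4 and Robo4, and the 29 above them held Pecam1 and Tie1. Log2 fold changes ran from 0.06 to 0.93 in those 7 and from -0.20 to 0.39 in the 29. The cut was placed at a called gene, Clec14a, whose MOZ WT values overlap those of Fli1, the next gene above. Both the order and the fold changes use the MOZ WT values.

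**Figure D3:**
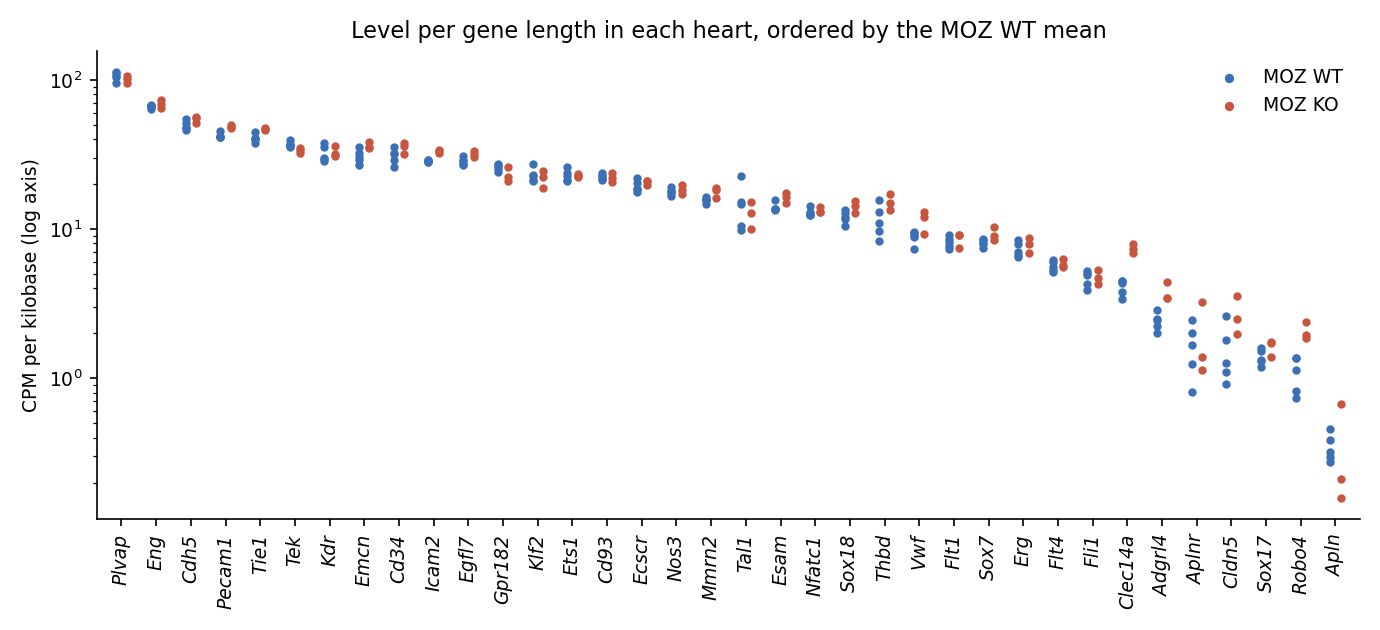
Level per gene length (y axis, CPM per kilobase, log axis) in each heart for the 36 genes, ordered by the MOZ WT mean. Blue points are MOZ WT hearts and red points are MOZ KO hearts. The groups do not overlap for 7 genes, Pecam1, Tie1, Tek and Icam2 in the upper part of the order and Clec14a, Adgrl4 and Robo4 at its low end. The highest gene, Plvap, at 106 CPM per kilobase in MOZ WT, overlaps.

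The spread between MOZ WT hearts differed among the genes, with a coefficient of variation of 1.77% for Icam2 to 44.8% for Cldn5 and a median of 9.10%. The 6 genes above 20% were Cldn5, Aplnr, Tal1, Robo4, Thbd and Apln. Hearts also differed as a whole. MOZ WT replicate 1 was the lowest heart for 17 of the 36 genes, and MOZ KO replicates 1 to 3 were the highest heart for 9, 8 and 10 genes. MOZ WT replicate 4 was the highest of all 8 hearts for 7 genes, which were Plvap, Tek, Kdr, Gpr182, Klf2, Tal1 and Nfatc1. The median over the genes of the log2 ratio to the MOZ WT mean was -0.10, 0.03, -0.03, 0.08 and 0.01 in MOZ WT replicates 1 to 5 and 0.16, 0.15 and 0.06 in MOZ KO replicates 1 to 3. The summed level of the 27 pan-endothelial genes was 1993 to 2221 CPM in MOZ WT and 2199 to 2343 CPM in MOZ KO, and these ranges overlapped through MOZ WT replicate 4 and MOZ KO replicate 3.

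**Figure D4:**
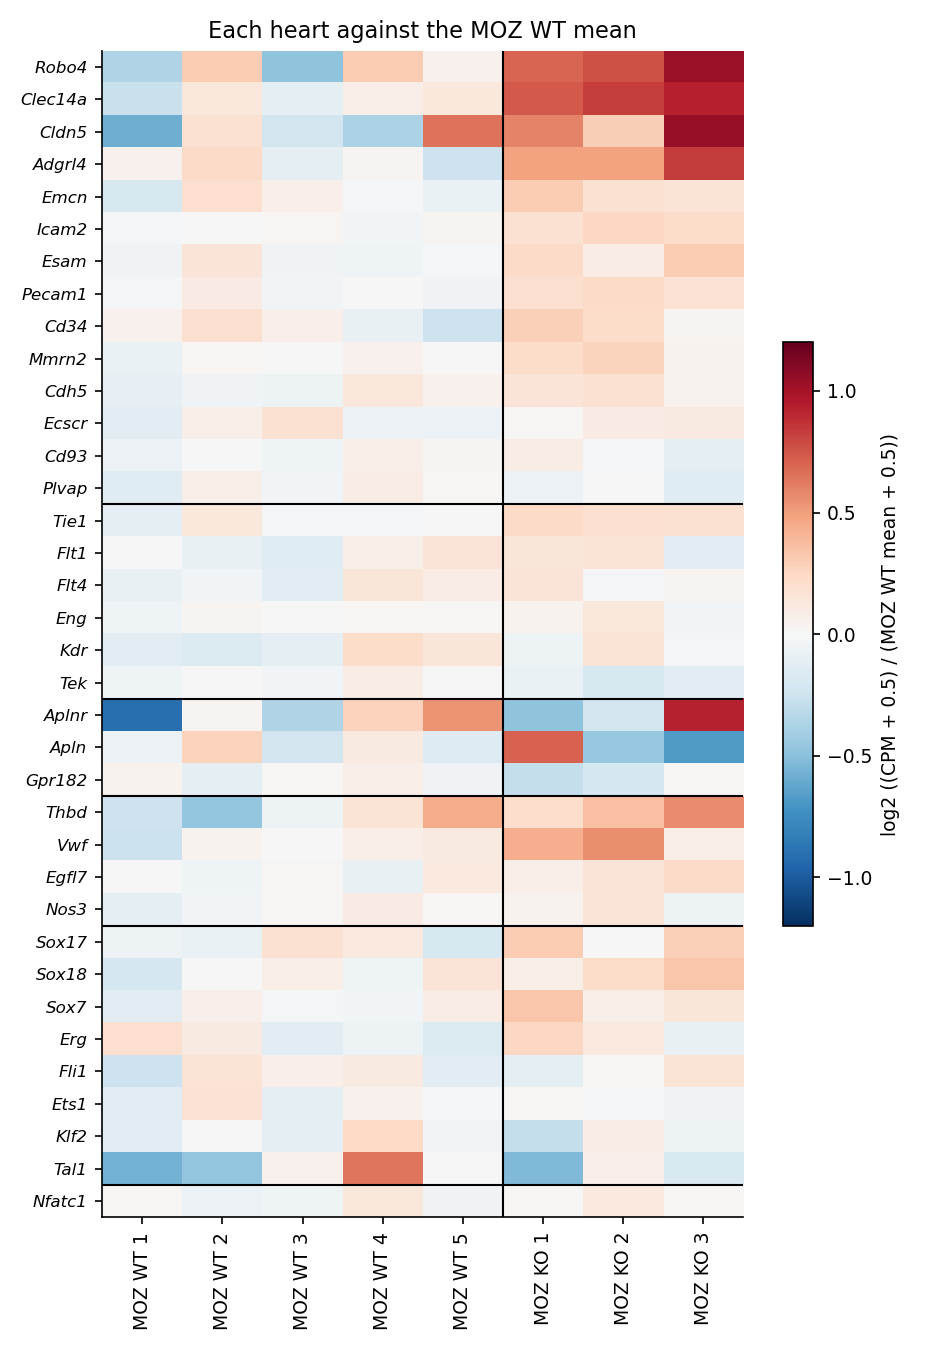
Log2 ratio of each heart (columns) to the MOZ WT mean for the 36 genes (rows, grouped by role), computed as (CPM + 0.5) over (MOZ WT mean + 0.5), red for higher and blue for lower. Robo4, Clec14a, Cldn5 and Adgrl4 are red in all 3 MOZ KO hearts, and Tal1 is bluest in MOZ WT replicates 1 and 2 and MOZ KO replicate 1.

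The lists of VEGF and angiopoietin partners, other endothelial transcription regulators and junction partners each held a called gene. Vegfa rose, while Nrp2, Gata2 and Jup fell. Of all genes tested, 2.67% passed in either direction (edgeR, adjusted p under 0.05). The lists were chosen with earlier results of these data known, so their shares test nothing. Of 10 VEGF and angiopoietin ligands and partners, 1 rose and 1 fell. Vegfa, the main ligand of Kdr and a gene induced by hypoxia, had 77.2, 75.2, 73.2, 64.2 and 77.6 CPM in MOZ WT and 104, 94.1 and 82.6 CPM in MOZ KO, without overlap (log2 fold change 0.35 ± 0.07, SE; edgeR, adjusted p = 0.0127). Vegfa did not pass without MOZ KO replicate 1 (0.113) or replicate 2 (0.0644), nor with Xist RNA as a covariate (0.0605). Nrp2, a VEGF and semaphorin coreceptor of veins, lymphatics and neural crest, fell from 46.7 ± 6.50 to 25.9 ± 2.81 CPM (SD; log2 fold change -0.85 ± 0.12, SE; edgeR, adjusted p = 0.00147). The angiopoietin genes Angpt1 and Angpt2 had 0.03 ± 0.06 and -0.33 ± 0.14 (SE), and neither passed. Of 12 other transcription regulators of endothelium, 1 fell and 0 rose: Gata2, a factor of blood and endothelium, from 23.2 ± 1.25 to 17.1 ± 0.541 CPM (SD; edgeR, adjusted p = 0.00377). Of 10 partners of junctions and of the CCM complex, 1 fell and 0 rose: Jup, the junction protein plakoglobin, which cardiomyocytes also express, with a log2 fold change of -0.19 ± 0.05 (SE; edgeR, adjusted p = 0.0261). Jup did not pass without MOZ WT replicate 3 or 4, without any 1 MOZ KO heart, or without both hearts with Xist RNA (adjusted p up to 0.0961).

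Artery, vein and lymphatic genes, and partners of apelin and guidance signalling, held no called gene. Among 10 arterial genes 0 passed (2 at an unadjusted p under 0.05, beside 14.2% of all genes tested, median 0.04), with Hey1 at -0.16 ± 0.06 and Notch4 at 0.27 ± 0.11 (SE) nearest the threshold. Of 6 venous and lymphatic genes 0 passed (1 at an unadjusted p under 0.05), led by the scavenger receptor gene Stab2 at 0.83 ± 0.30 and Pdpn at -0.15 ± 0.09 (SE). Among 9 partners in apelin, adrenomedullin and guidance signalling 0 passed (4 at an unadjusted p under 0.05), led by the apelin receptor ligand gene Apela at -0.51 ± 0.17 and the sphingosine phosphate receptor gene S1pr1 at 0.18 ± 0.06. DESeq2 and limma voom also passed 0 genes of these 3 lists. S1pr1 passed without MOZ WT replicate 1 (edgeR, adjusted p = 0.0396) and Apela with Xist RNA as a covariate (0.0358).

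Markers of the muscle cells of the heart also held called genes. Of 11 cardiomyocyte genes 2 rose and 0 fell, Ryr2 at 0.25 ± 0.06 and Tnni3 at 0.20 ± 0.05 (SE), with Tnnt2 at 0.13 ± 0.05 (SE) not among them. Of the 11 fold changes, 9 lay above 0 and 2 below, with a median of 0.13 (log2), beside 0.14 over the 36 genes. The summed level of the 11 was 34188 to 36783 CPM in MOZ WT and 36899 to 39984 CPM in MOZ KO. The call of Ryr2 was lost without MOZ WT replicate 3 or MOZ KO replicate 1 or 2, where its highest adjusted p was 0.123 (edgeR). That of Tnni3 was lost without MOZ WT replicate 3, 4 or 5 or MOZ KO replicate 1 or 3, with 0.296 at most. It was also lost without both hearts with Xist RNA (0.192) and with limma voom. Over 20 alternatives, Ryr2 passed in 16 and Tnni3 in 9. The part of the cardiomyocyte genes in the endothelial values was not tested. Of 7 smooth muscle and pericyte genes, which include those of cells on vessels, 1 rose and 0 fell, namely Tagln, which embryonic cardiomyocytes express as well, with 0.35 ± 0.06 (SE). Genes of the immediate early and heat shock response, which handling of tissue can induce, had 0 of 14 past the threshold with edgeR (1 at an unadjusted p under 0.05), with Hsph1 at -0.19 ± 0.08 and Jun at 0.45 ± 0.21 (SE), and a median of 0.21. Their summed level was 462 to 517 CPM in MOZ WT and 687, 474 and 464 CPM in MOZ KO replicates 1 to 3. Without MOZ KO replicate 1, the heart highest in these genes, Clec14a had a log2 fold change of 0.91, Robo4 1.01 and Adgrl4 0.71, and all 3 passed. Pecam1 and Tie1 had 0.20 and 0.19 without it and did not pass, nor did they without MOZ KO replicate 2 or 3. The part of tissue handling in the endothelial values was not tested.

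**Figure D5:**
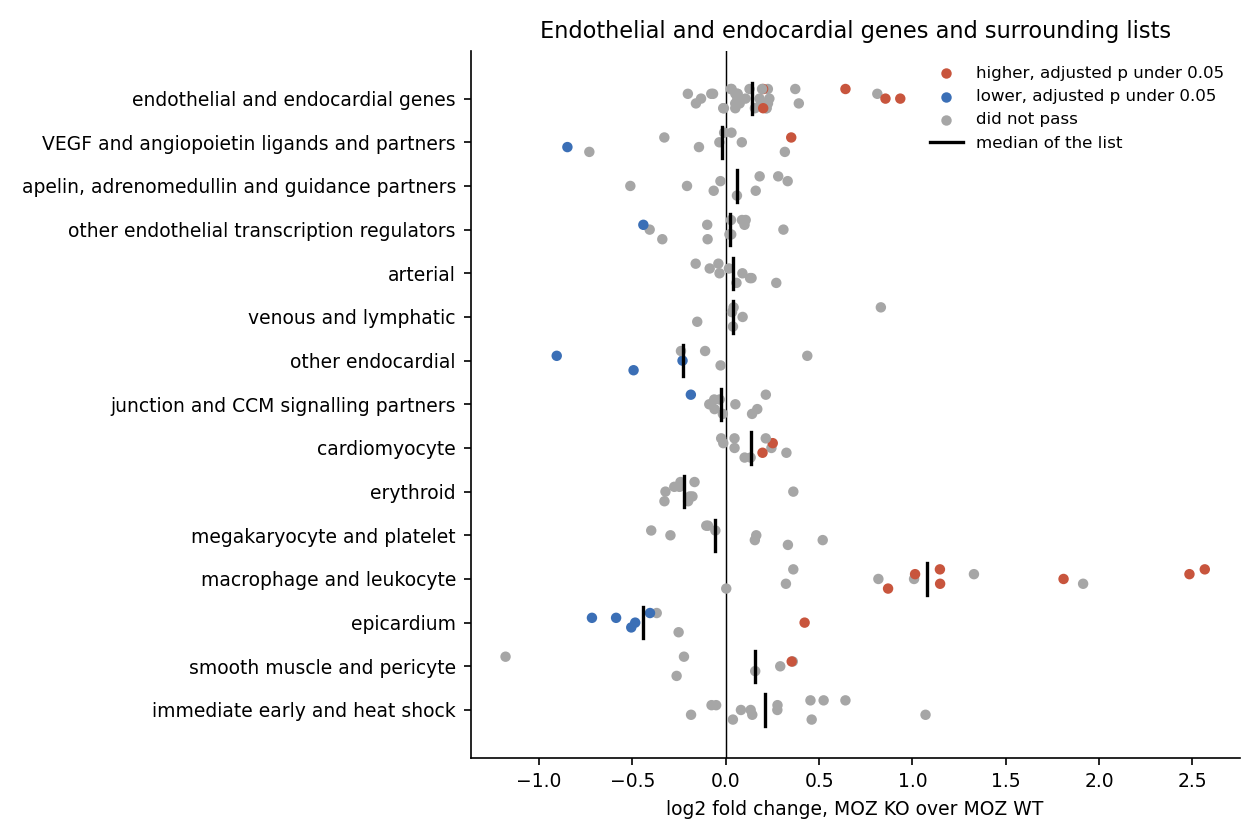
Log2 fold change of MOZ KO over MOZ WT (x axis) for the 36 endothelial and endocardial genes and 14 other gene lists (y axis). Each point is a gene, red for higher and blue for lower at an adjusted p under 0.05, and black bars are list medians. The 36 genes have a median of 0.14, cardiomyocyte genes 0.13, other endocardial genes -0.23, epicardial genes -0.45 and macrophage genes 1.08. VEGF and angiopoietin partners have -0.02, other endothelial transcription regulators 0.02 and junction and CCM partners -0.02.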

How the data were processed

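RNA of 8 E10.5 mouse hearts was sequenced. The deposited values are counts per gene made by the authors, on mm10 with bcl2fastq and featureCounts named per the submitters' processing notes. The sources used here do not give the aligner, the annotation release or the strand setting. Counts of 27179 Entrez genes were used as deposited, with the gene length column of the same table, and 1904 IDs had no symbol in the reference table. The 36 genes and the 14 other lists were chosen with earlier results of these data known. Genes were filtered by group (filterByExpr), scaled by TMM and tested with edgeR 4.0.16 (quasi-likelihood, robust) in R 4.3.3, and p-values were adjusted over all 15086 genes kept. CPM used the scaled library sizes. All 36 genes are named, and from each list the called genes of smallest p (up to 4) or else the 2 of smallest p, with Npr3, Vegfa, Tnnt2, Kat6a and Xist. Of these, 1 list gene is not reported here. Gp1bb, Nr2f2, Angpt1 and Angpt2 fall outside this rule and were chosen after their values were seen. No 2 libraries agreed within sampling noise (chi-square per degree of freedom at least 8.25 over 28 pairs), and the biological coefficient of variation was 9.10%. DESeq2 1.42.0, limma 3.58.1 and 18 other settings served as alternatives. Sequences came from RefSeq promoters of GRCm38.p6. Genes overlapping on the genome may share reads; Eng, Nos3 and Plvap overlap a tested gene.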

Additional observations from a re-analysis of the deposited data

Results flagged for a closer look

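Both values that stood apart within a group were from the same heart. Pecam1 had 149.567 CPM in MOZ WT replicate 2, with 135.707 to 138.555 CPM in the other 4 MOZ WT hearts. Esam, a junction molecule, had 28.8218 CPM in MOZ WT replicate 2, with 24.8834 to 25.4122 CPM in the others. The distance of that heart to its nearest neighbour, divided by the range of the 5 hearts, was 0.794 for Pecam1 and 0.866 for Esam. Both exceeded the 95% critical value of Dixon's test for 5 samples (0.710). All 36 genes were looked at in the MOZ WT group, and chance alone flags about 1 in 20 groups. The MOZ KO group, with 3 hearts, was too small for this look.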

How the results depend on the processing

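Over 20 alternatives, 0 of the 36 genes passed as lower, 27 kept the direction of their fold change and 9 turned in at least 1 setting, and no called gene was among those 9. The genes called higher numbered 7 with DESeq2, 6 with limma voom, 5 under either other scaling, either other count filter, or with erythroid genes left out or as a covariate, and 4 without robust moderation. With Xist RNA as a covariate they again numbered 5 but were Clec14a, Robo4, Adgrl4, Cdh5 and Thbd. A replicate block over replicates 1 to 3 gave 3 genes higher (Clec14a, Robo4 and Thbd) and 186 genes of the whole table, against 403 without it. It also passed Nr2f2 of the venous and lymphatic list (adjusted p = 0.0488 with the block). The numbers share no stated source, and hearts of the same number did not deviate together (r = 0.07, -0.16 and -0.06), with MOZ KO replicate 1 correlating best with MOZ WT replicate 2 (r = 0.12). Leaving out 1 heart gave 194 (without MOZ KO replicate 1) to 496 (without MOZ WT replicate 2) genes in all, 2 (without MOZ KO replicate 3) to 6 (without MOZ WT replicate 2) of the 36 genes higher, and 15 (without MOZ KO replicate 1) to 26 called list genes, against 23. Genes in all numbered 263 without MOZ KO replicate 3, 273 without MOZ KO replicate 2 and 280 without MOZ WT replicate 3. Scaling moved the median of all genes by at most 0.01 (log2). Counts of 11 to 63 per heart limit Apln, and 3 MOZ KO hearts, all without Xist RNA, limit every comparison.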
